A study of Mus musculus with 6 samples.

Results

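The 10 circadian clock genes Per1, Per2, Per3, Cry1, Cry2, Arntl, Nr1d1, Nr1d2, Dbp and Tef were followed in mouse dorsal skin through the first days of hair regrowth. They were taken by symbol from the 32285 rows of the gene table, and 1 row matched each symbol. The 6 single-cell libraries came from wildtype adult males of the FVB strain, aged postnatal day 55 to 57, whose back skin was shaved and waxed to set off hair regeneration. Skin was taken right away (0 h), after 4 h and 16 h, and then on days 2, 4 and 6 (2 d, 4 d, 6 d), and each library pooled equal numbers of cells from 2 mice. A time point is therefore 1 sample whose mice are mixed, and individual time points could not be tested against each other. The hour of day at which the mice were depilated or their skin was taken is not given in the sources used here. Suppose that the labelled times are exact and that all mice were depilated at the same hour of day. The 2 d, 4 d, 6 d and 0 h libraries then share an hour of day. The 4 h and 16 h libraries then lie at other hours. That depilation was at the same hour is not stated, and all comparisons at the same nominal hour below assume it.

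The circadian clock is a feedback loop of transcription that runs in most cells of the body with a period of about a day. BMAL1, the product of Arntl, pairs with CLOCK and activates genes that carry E-box sequences. Among these genes are the Per and Cry genes, whose proteins return to the nucleus and block the pair, and Nr1d1 and Nr1d2, whose products REV-ERBα and REV-ERBβ repress Arntl through ROR response elements. Dbp and Tef encode factors that act on D-box sequences and pass the rhythm on to further genes. In skin, clock genes cycle in keratinocytes and in hair follicle stem cells. The question here is whether all cell types of a library shift together, as a different hour of sampling would give.

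The motifs of this loop were searched in the promoter windows of RefSeq, which run from 250 bases before to 50 bases after a start site on build GRCm38.p6. Of the 10 genes, 9 had at least 1 window, and they had 12 windows in all. On both strands, the search covered the E-box CACGTG, the variant E-box CACGTT, the D-box TTATGTAA and the ROR element core TAGGTCA or TGGGTCA. Among all 32851 windows, the E-box occurred in 7.15%, the variant E-box in 4.68%, the D-box in 0.938% and the ROR core in 6.45%. The stretches below are those of the clock genes that hold a match, with the matches in capitals, shown because these are the motifs through which the arms of the loop act. A match is a description of the letters and not a site of binding. A variant E-box on the other strand reads AACGTG.
Per1 (chr11:69098753-69098818, plus strand): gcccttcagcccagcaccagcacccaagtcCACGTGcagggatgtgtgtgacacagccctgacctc
Cry1 (chr10:85185079-85185163, minus strand): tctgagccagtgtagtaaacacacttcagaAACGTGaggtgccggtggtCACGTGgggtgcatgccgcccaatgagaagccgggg
Cry2 (chr2:92434200-92434265, minus strand): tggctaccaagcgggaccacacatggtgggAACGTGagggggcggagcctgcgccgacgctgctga
Nr1d1 (chr11:98775378-98775435, minus strand): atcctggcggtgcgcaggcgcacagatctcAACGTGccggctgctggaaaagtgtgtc
Tef, the first window (chr15:81802516-81802581, plus strand): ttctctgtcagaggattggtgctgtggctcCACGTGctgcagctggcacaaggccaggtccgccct
Tef, the second window (chr15:81811246-81811311, plus strand): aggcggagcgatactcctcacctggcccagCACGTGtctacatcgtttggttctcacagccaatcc
Per3 (chr4:151044786-151044900, minus strand): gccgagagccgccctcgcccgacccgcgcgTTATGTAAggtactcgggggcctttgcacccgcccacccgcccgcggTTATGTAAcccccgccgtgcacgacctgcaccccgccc
Arntl, the second window (chr7:113207531-113207557, plus strand): aggcagaaagTAGGTCAgggacggagg
Per1, Cry1 and Tef held the E-box, and Cry1, Cry2 and Nr1d1 held the variant E-box. Per3 held 2 copies of the D-box, and Arntl held the ROR core just after the start site of its second window. None of these letters occurred in the windows of Dbp and Nr1d2, which says only that they are not in those 300 bases.

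After filters and removal of predicted doublets, 50502 of 61031 barcodes were kept, 6520 to 11032 per library, with 65877606 to 95672793 UMIs (counted molecules) per library. Libraries shared 7 to 47 barcodes per pair. Cells were grouped by clustering, and 9 groups with at least 20 cells in every library were used. Names were given from markers, as outer bulge-like (OB-like), upper follicle basal-like and suprabasal-like (uHF.B-like, uHF.SB-like), interfollicular suprabasal-like (IFE.SB-like), T cell-like, Langerhans cell-like and melanocyte-like. Cluster 0, with 16769 cells, was led by Thbs2, Igfbp3, Fcgbp and Epgn and passed 11 of 11 basal keratinocyte markers without having any of them among its top 10 genes, and cluster 6, with 2077 cells, was led by Dclk1, Gpc6, Nrep and Alcam. Both kept their numbers. These clusters and the OB-like, uHF.B-like, uHF.SB-like and IFE.SB-like cells are called the 6 keratinocyte groups. No cell type here is known to lack the clock genes. Levels are UMIs per 1000000 UMIs of a sum of cells (CPM) with exact Poisson 95% intervals, and intervals cover counting error only. Where 6 values are given in time order, they run from the 0 h to the 6 d library. A difference between libraries is called beyond counting error where the exact 95% interval of the ratio leaves out 1. Sums ranged from 76513 UMIs in the melanocyte-like cells at 0 h to 37723838 in cluster 0 at 16 h, so the small groups give wide intervals.

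Arntl, the activating arm of the loop, was highest at 0 h. Over all cells its levels in time order were 32.7 (31.4 to 34.1), 23.8, 27.9, 22.7, 16.2 (15.3 to 17.1) and 20.02 CPM. Over all cells the 0 h library stood above all others and the 4 d library below all others beyond their intervals. Levels over all cells also follow the mix of cell types, in which the OB-like cells went from 334 at 0 h to 2908 at 4 d. With types weighted equally the levels of Arntl in time order were 25.45, 18.75, 20.12, 14.53, 15.18 and 15.85 CPM, with 2 d the lowest. With that weighting the highest library was the same as over all cells for 10 of the 10 clock genes and the lowest for 6, the exceptions being Arntl, Nr1d2, Dbp and Tef. In 7 of 9 cell types 0 h was the highest library, the exceptions being the IFE.SB-like and melanocyte-like cells, where 16 h was. The descent was steep in the OB-like cells, with 35.0, 22.0, 15.4, 7.56, 7.73 and 12.6 CPM in time order. Cluster 0, the group with the highest Arntl level, stayed within a narrower band of 42.7, 31.9, 40.0, 36.1, 36.1 and 37.2 CPM in time order. In cluster 0 the lowest library was 4 h and not 4 d. The OB-like sums changed in make-up over the same libraries, since the 6 inner root sheath and matrix markers summed to 8.24 CPM at 0 h and 1065 at 4 d and the 9 outer bulge markers to 22710 and 3728, and the part of this in the OB-like values was not tested. From 0 h to 4 h, Arntl was lower beyond counting error in 5 of 9 types and higher in none, with a ratio of 0.494 (0.37 to 0.651) in the uHF.B-like cells.

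**Figure D1:**
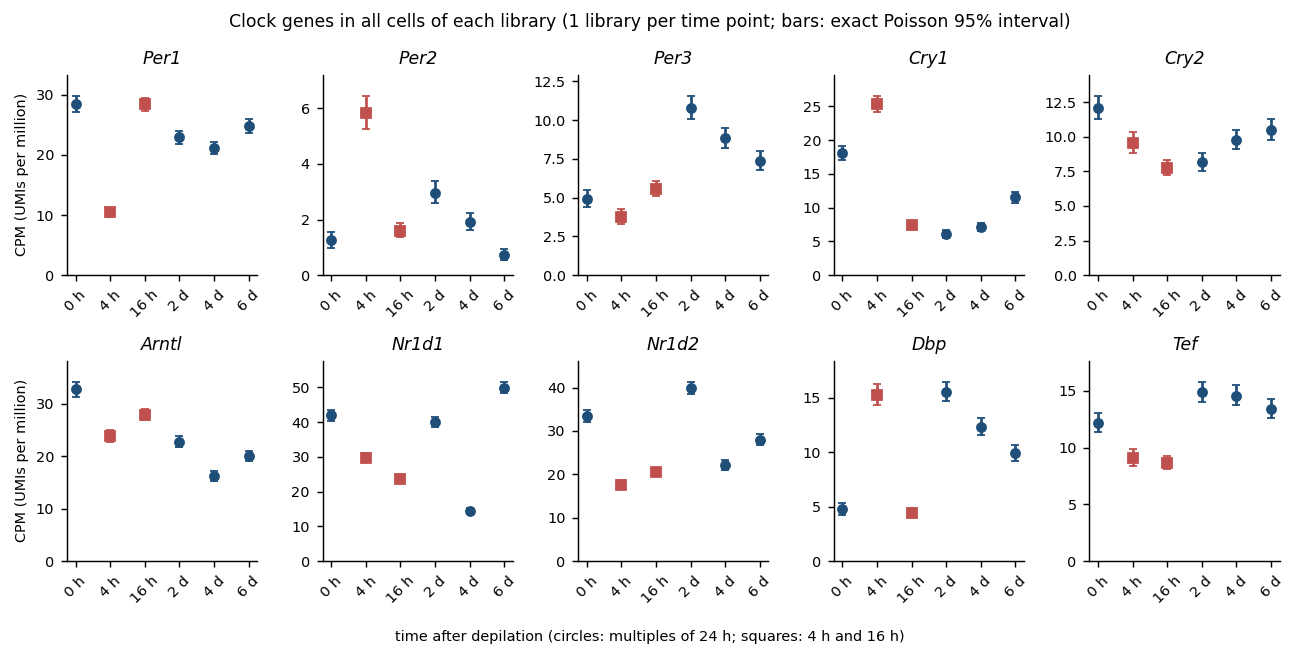
Level of each clock gene in all cells of a library, in CPM, against time after depilation; points are single libraries and bars are exact Poisson 95% intervals. Arntl is highest at 0 h, Per1 lowest at 4 h, Per2 and Cry1 highest at 4 h, and Nr1d1 moves between 14.5 at 4 d and 49.9 at 6 d although both libraries are at multiples of 24 h.

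Nr1d1, which encodes the repressor REV-ERBα, had its extremes in libraries at the same nominal hour. Its levels over all cells were 42.0, 29.7, 23.7, 40.1, 14.5 and 49.9 CPM in time order. The 4 d library was the lowest and the 6 d library the highest, with intervals of 13.7 to 15.4 and 48.3 to 51.5. From 4 d to 6 d, Nr1d1 was higher beyond counting error in all 6 keratinocyte groups, by 7.03-fold (5.77 to 8.6) in the OB-like cells, 4.58-fold (3.31 to 6.47) in the uHF.SB-like cells and 1.79-fold (1.55 to 2.07) in the IFE.SB-like cells. In the T cell-like cells Nr1d1 stayed between 4.54 and 8.76 CPM in the 6 libraries, with a 6 d to 4 d ratio of 1.32 (0.399 to 3.88). The T cell-like and Langerhans cell-like sums were the lowest in Nr1d1, at 6.24 ± 1.6 and 2.72 ± 2.15 CPM (mean ± SD over the 6 libraries), beside 49.5 ± 25.3 in cluster 0. Nr1d1 overlaps Thra on the opposite strand, where its reads would be set apart only by a count that uses strand.

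Nr1d2, the gene of the paralogous repressor REV-ERBβ, followed a different course. Over all cells it stood at 33.4, 17.6, 20.5, 39.8, 22.1 and 28.0 CPM in time order. It was low at 4 h, 16 h and 4 d and high at 0 h and 2 d. From 0 h to 4 h it was lower beyond counting error in 6 of 9 cell types and higher in none, from 0.46-fold (0.415 to 0.509) in cluster 0 to 0.596-fold (0.446 to 0.797) in the OB-like cells. From 16 h to 2 d it was higher in 7 types and lower in none, and from 2 d to 4 d it was lower in 8 types and higher in none. The T cell-like cells carried the highest mean Nr1d2 level, 51 ± 27.1 CPM over the 6 libraries, from 102 at 0 h to 22.0 at 4 d.

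Among the Period genes, whose proteins form the repressor complex with the cryptochromes, Per1 and Per2 diverged at 4 h. Per1 over all cells was 28.5, 10.4 (9.68 to 11.2), 28.4, 22.9, 21.2 and 24.8 CPM in time order. Over all cells the other 5 libraries lay within 21.2 to 28.5 and the 4 h library stood far below them. With types weighted equally the levels of Per1 in time order were 68.9, 23.14, 50.95, 43.28, 32.54 and 44.91 CPM, again lowest at 4 h. This dip was present in 8 of 9 cell types beyond counting error, from 0.118-fold (0.0748 to 0.181) of the 0 h level in the OB-like cells to 0.51-fold (0.435 to 0.596) in the IFE.SB-like cells. The ratio in the remaining type, the melanocyte-like cells, was 0.236 (0.00399 to 4.52). Per1 was again higher at 16 h than at 4 h in 7 types and lower in none, while in the T cell-like cells the ratio was 1.08 (0.753 to 1.55).

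Per2 was the reverse of Per1 at 4 h. Its levels over all cells were 1.25, 5.83 (5.26 to 6.44), 1.60, 2.97, 1.91 and 0.730 CPM in time order. The 4 h library was the highest in 7 of 9 cell types. At 4 h the ratio to 0 h was 6.01 (4.06 to 9.2) in cluster 0, 7.63 (2.59 to 30.4) in the uHF.SB-like cells and 1.29 (0.622 to 2.84) in the T cell-like cells. Counts were small, 83 UMIs in all at 0 h and 384 at 4 h, and no Per2 UMI was counted in the melanocyte-like cells outside the 4 d library.

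Per3 was highest at 2 d. Over all cells its levels in time order were 4.94, 3.78, 5.55, 10.8 (10.1 to 11.6), 8.83 and 7.39 CPM. It was 2.19-fold higher at 2 d than at 0 h, libraries at the same nominal hour, and 6 of 9 types showed this direction beyond counting error while none showed the other, as for 13.2% of all genes in at least 5 types. The OB-like ratio of 2 d to 0 h was 6.22 (2.24 to 24) and the T cell-like ratio 1.03 (0.757 to 1.41). The T cell-like cells had 77.1 ± 19.9 CPM of Per3 over the 6 libraries, and every other type had a mean of at most 7.74. Per3 overlaps Camta1 on the same strand, so strand would not set their reads apart in the overlap.

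Of the cryptochromes, Cry1 carried a course shared by more cell types than that of Cry2. Cry1 over all cells was 18.1, 25.3 (24.1 to 26.5), 7.39, 6.07, 7.10 and 11.5 CPM in time order. It was high at 0 h and 4 h, low from 16 h to 4 d and between at 6 d. From 4 h to 16 h it was lower beyond counting error in 7 of 9 types and lower in value in the other 2, with 0.279-fold (0.245 to 0.317) in cluster 0 and 0.153-fold (0.0958 to 0.239) in the uHF.B-like cells. Compared at the same nominal hour, Cry1 at 2 d was 0.338-fold (0.281 to 0.405) of 0 h in cluster 0, and it was lower beyond counting error in all 6 keratinocyte groups and higher in none of the 9 types, as for 8.98% of all genes in at least 5 types.

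Cry2 over all cells was 12.1, 9.55, 7.78, 8.17, 9.78 and 10.5 CPM at the 6 times, with a ratio of 1.55 between the 0 h and the 16 h library. Its cell types did not share a highest library, which was 0 h in 3, 4 h in 2, 2 d in 2, 16 h in 1 and 4 d in 1. Compared with 0 h, Cry2 was lower beyond counting error in 3, 3, 4, 2 and 2 types at the later times in order. It was higher in none, or in 1 at 4 h with TMM scaling. The T cell-like cells had 61.4, 35.2, 8.71, 27.3, 13.1 and 20.2 CPM in time order. The OB-like cells had 44.3 CPM at 0 h and 11.5 to 18.9 in the other 5 libraries. In the other types the means were at most 12.2 CPM.

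Dbp, an output gene of the loop that is strongly rhythmic in many tissues, did not move together in the cell types. Over all cells it stood at 4.76 (4.25 to 5.31), 15.3 (14.3 to 16.2), 4.45 (4.04 to 4.9), 15.5 (14.7 to 16.4), 12.3 and 9.92 CPM in time order. The 0 h and 16 h libraries were low and the 4 h and 2 d libraries high, and within each of these pairs the intervals overlapped. In cluster 0, Dbp was 5.39, 23.8, 1.96, 17.6, 9.08 and 11.6 CPM at the 6 times. The ratio of 4 h to 0 h was 4.42 (3.7 to 5.31) in cluster 0 and 4 (2.13 to 7.86) in the uHF.B-like cells, but 0.49 (0.289 to 0.822) in the OB-like cells and 1.07 (0.621 to 1.88) in the T cell-like cells. At 2 d the keratinocyte groups had 1 direction. Dbp at 2 d was higher than at 0 h beyond counting error in all 6 of them, from 1.98-fold (1.36 to 2.96) in the OB-like cells to 8.09-fold (4.72 to 14.9) in the uHF.B-like cells, and the T cell-like ratio was 0.58 (0.341 to 1.01). Dbp thus met the same count as Per3 for these 2 libraries, and the share of all genes given with Per3 stands beside it. With TMM scaling Dbp was higher in 6 types and lower in 1. Dbp overlaps Sphk2 on the opposite strand.

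The share of cells with a Dbp UMI, after thinning every cell to 2000 UMIs, had the same order of these 4 libraries in cluster 0 as the CPM. It was 4.64% (3.95 to 5.41) at 4 h, 3.36% at 2 d, 1.41% at 0 h and 0.59% (0.356 to 0.92) at 16 h, with exact binomial 95% intervals. Without thinning the shares were 17.2%, 10.8%, 4.39% and 1.91%, at median depths of 9026, 7680, 8690.5 and 10998 UMIs, and 16, 21, 10 and 20 shallower cells were left out of the thinned values. The thinned share in the OB-like cells was 1.2% (0.482 to 2.45) at 4 h and 3.89% (2.09 to 6.56) at 0 h, in the other order. There the unthinned shares were 4.13% and 8.08%, at median depths of 4537 and 5642.5 UMIs, and 45 and 0 cells were left out. No cell type here gives a background for these shares. The keratinocyte gene Krt14 was also counted outside keratinocytes, at 585 CPM in the T cell-like cells beside 22880 in cluster 0, and the part of RNA carried over from other cells in the Dbp shares was not tested.

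Tef, the second D-box factor, varied less. Its levels over all cells in time order were 12.2, 9.08, 8.68, 14.9, 14.6 and 13.4 CPM. Over all cells the 4 h and 16 h libraries were the lowest and their intervals lay below those of the other 4. With types weighted equally this order was lost, and the levels in time order were 13.59, 13.63, 13.61, 19.83, 14.02 and 17.04 CPM. The melanocyte-like sums entered these means with only 0, 5 and 4 Tef UMIs at 0 h, 4 h and 16 h, or 0, 30.77 and 25.51 CPM. Their part in the lost order was not tested. From 16 h to 2 d Tef was higher beyond counting error in 5 of 9 types and lower in none, by 2.04-fold (1.71 to 2.44) in cluster 0. In the T cell-like cells the highest Tef level was at 4 h, with 37.4 CPM (25.8 to 52.6). The lowest was at 6 d, with 16.4 (8.73 to 28.0) from 13 UMIs, which overlapped 4 h and also 16 h, at 17.4 (8.36 to 32.1). The T cell markers of these cells summed to 20740 CPM at 4 d and 12950 at 6 d, and the part of this was not tested.

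**Figure D2:**
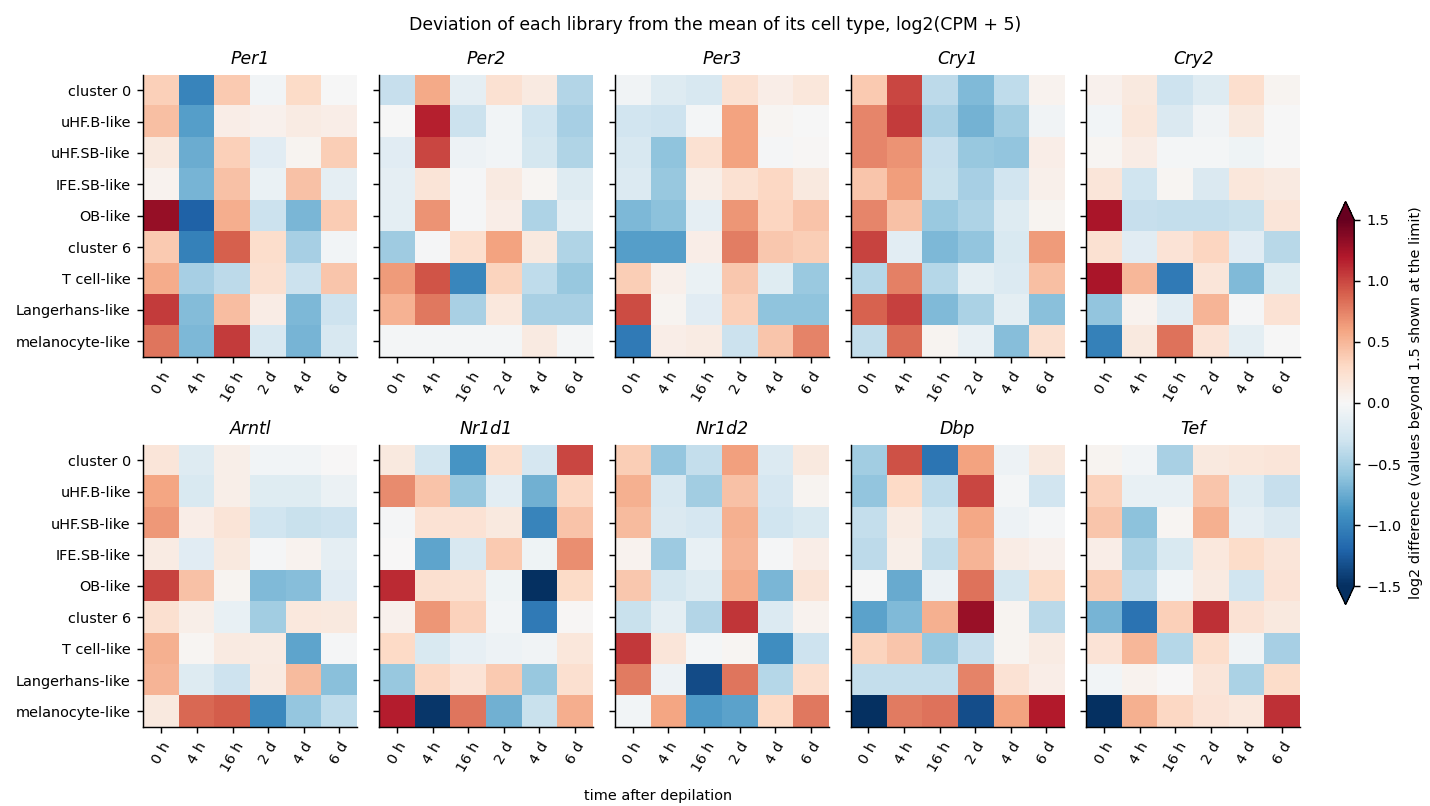
For each clock gene, the difference of each library (columns) from the mean of its cell type (rows) on the log2(CPM + 5) scale; red is higher and blue lower. Per1 shows a blue column at 4 h through nearly all rows and Cry1 is red at 0 h and 4 h in most rows, whereas Dbp at 4 h is red in cluster 0 and blue in the OB-like cells.

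Whether all cell types of a library shifted together was measured for each gene as a common library share. This is the percentage of the variation between libraries within cell types, on the log2(CPM + 5) scale, that the means of the libraries over the 9 types account for. The median of the 10 clock genes was 35.2%, and the median of the 8350 genes with a mean of at least 10 CPM was 37.6%, with quartiles of 23.4% and 53.3%. Of the clock genes 9 reached that mean, and Per2, at 3.62 CPM, did not. The members spread widely, with Cry1 at 67.4%, Per1 at 65.6% and Per2 at 50.8%, then Nr1d2 at 42.1%, Arntl at 36.9%, Nr1d1 at 33.5%, Per3 at 27.6%, Dbp at 23.0%, Tef at 13.3% and Cry2 at 4.67%. Cry1 and Per1 stood at percentiles 91.9 and 89.8 of all genes, Tef at 9.13 and Cry2 at 0.97. Cell types of 1 library share mice, dissociation and capture, so a common shift is not particular to an hour of day, and their part in it was not tested.

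**Figure D3:**
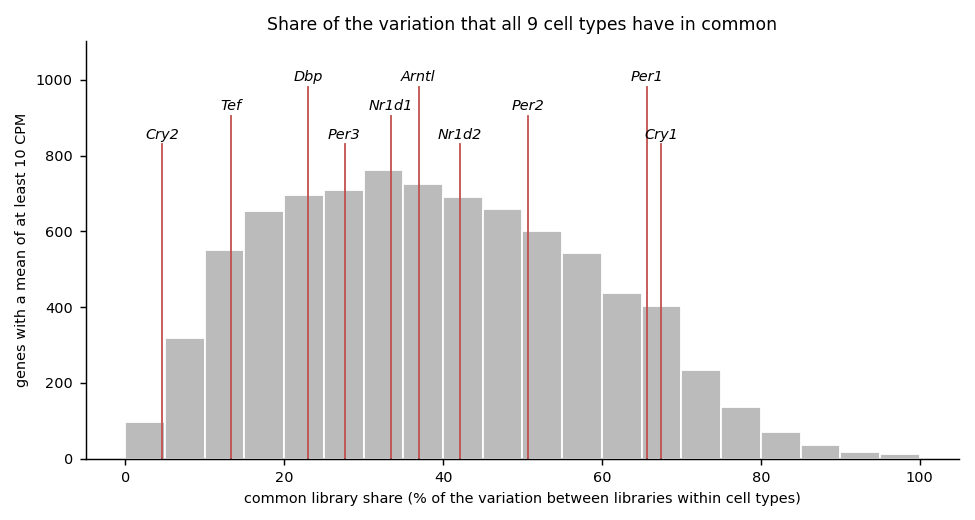
Histogram of the common library share in percent over the 8350 genes with a mean of at least 10 CPM (grey bars, number of genes), with the clock genes marked by red lines. Cry1 and Per1 lie towards the upper end, Cry2 and Tef towards the lower end and the other clock genes between them.

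A single library was the highest in at least 7 of 9 cell types for 2 of the 10 genes, Per2 (4 h) and Arntl (0 h), while 16.8% of the 8350 genes met the same count. Per3, Nr1d2 and Dbp were each highest at 2 d in 6 types, and Cry1 at 4 h in 6. With the 5 types that had at least 1000000 UMIs in every library, a choice made after seeing the data, the median share of the clock genes was 66.4%, beside 67.4% over all genes, and 5 of them met the matching count, beside 47.04% of all genes. The shares in these types were 93.05% for Cry1, 83.25% for Nr1d2, 76.37% for Per2, 75.43% for Per3 and 71.71% for Per1. For Dbp, Arntl, Tef, Nr1d1 and Cry2 they were 61.02%, 57%, 54.38%, 50.66% and 29.32%.

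Between neighbouring libraries, at most 4 of the 10 clock genes moved together in most types. A gene was counted where at least 5 of 9 types differed beyond counting error in 1 direction and none in the other. From 0 h to 4 h, Per2 was higher in this sense, beside 23.6% of all genes, and Per1, Arntl and Nr1d2 were lower, beside 14.1%. From 4 h to 16 h, Per1 was higher (17.5% of all genes) and Per2 and Cry1 were lower (13.2%). From 16 h to 2 d, Per3, Nr1d2 and Tef were higher (5.2% of all genes) and Arntl was lower (18.1%). From 2 d to 4 d no clock gene was higher and Nr1d1 and Nr1d2 were lower (6.75%), and from 4 d to 6 d Cry1 and Nr1d1 were higher (7.32%) and none was lower. With TMM scaling the first 2 steps gave the same genes, Dbp joined the genes higher at 2 d than at 16 h while Arntl no longer counted there, and Per3 and Nr1d2 joined the last 2 steps as lower and higher. Neighbouring steps share a library, so their values are not independent.

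Other clock genes went in both directions at a step. From 4 h to 16 h, 6 genes, Cry2, Arntl, Nr1d1, Nr1d2, Dbp and Tef, were higher beyond counting error in at least 1 type and lower in at least 1 other, beside 26.3% of all genes. This was also seen for Dbp from 0 h to 4 h (26.5% of all genes), for Per1, Cry2 and Dbp from 16 h to 2 d (28.7%), for Per1, Cry2, Arntl and Dbp from 2 d to 4 d (27.3%) and for Per1, Per2 and Dbp from 4 d to 6 d (32.1%). Dbp was in this count at all 5 steps with CPM, and at 3 of them with TMM scaling, where it no longer counted from 16 h to 2 d and from 4 d to 6 d. With TMM scaling Cry1 and Cry2 joined it from 0 h to 4 h, Per1 was the remaining gene from 16 h to 2 d, Arntl no longer counted from 2 d to 4 d, and the 6 genes from 4 h to 16 h were the same.

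The 4 libraries at multiples of 24 h also differed among themselves. Over all cells, the ratio of the highest to the lowest of these 4 was 4.07 for Per2, 3.44 for Nr1d1, 3.27 for Dbp, 2.98 for Cry1, 2.19 for Per3, 2.02 for Arntl, 1.8 for Nr1d2, 1.48 for Cry2, 1.35 for Per1 and 1.22 for Tef. With types weighted equally, Per1 ranged in these 4 libraries from 32.54 CPM at 4 d to 68.9 at 0 h. Over all cells the median of the 10 ratios was 2.1, and that of the 7767 genes with at least 10 CPM was 1.6. The 4 h library lay outside the range of these 4 for 6 clock genes, above it for Per2 and Cry1 and below it for Per1, Per3, Nr1d2 and Tef, and it did so for 63.4% of all genes. The 16 h library lay outside for 4, all below (Cry2, Nr1d2, Dbp and Tef), beside 29.7% of all genes. For Cry2, Nr1d2 and Dbp the 16 h interval overlapped that of the lowest of the 4 libraries. With types weighted equally, Nr1d2 and Tef at 4 h and Dbp and Tef at 16 h lay within the range. Dbp was then 11.82 CPM at 16 h and 8.857 at 0 h. Arntl and Nr1d1 were within the range at both times.

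**Figure D4:**
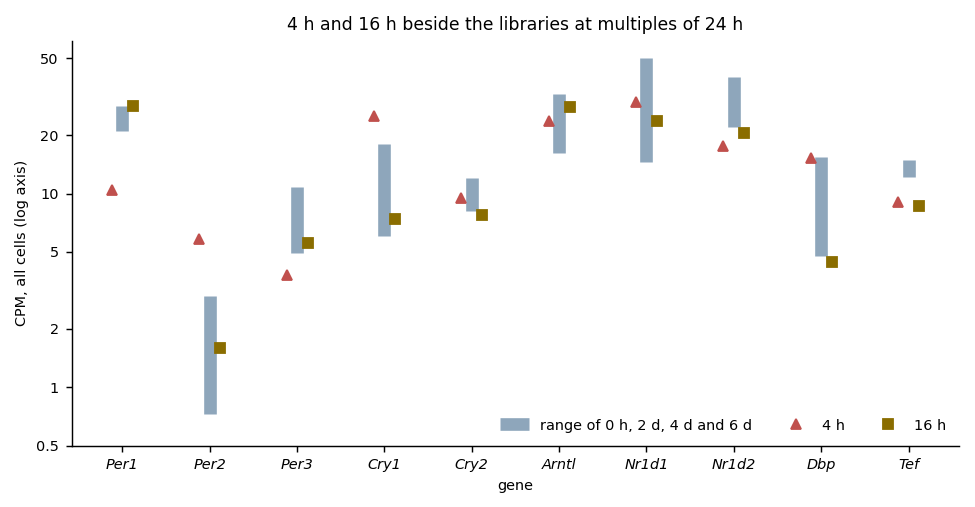
Level of each clock gene over all cells in CPM on a log axis; blue bars span the 2 d, 4 d, 6 d and 0 h libraries, triangles are 4 h and squares 16 h. The 4 h triangles of Per2 and Cry1 lie above their bars and those of Per1, Per3, Nr1d2 and Tef below, and the bars of Per2, Nr1d1 and Dbp are the longest.

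The time course was tested with the quasi-likelihood F test of edgeR on sums per library and cell type, with a spline of hours that leaves 2 residual degrees of freedom. No clock gene was called at an FDR of 0.05 in any of 70 tests of a gene in a cell type, beside 0.413% of all such tests, and 5 of the 70 had an unadjusted p under 0.05, beside 4.76% of all tests. DESeq2 with the same design also called none. The lowest adjusted p of a clock gene in edgeR was 0.205, for Dbp in cluster 6. Over the sum of all cells none of the 10 genes was called by edgeR (0.00626% of all genes), and Cry1 alone had an unadjusted p under 0.05. By cell type, 0.0712% of genes were called in the OB-like, 0.0514% in the T cell-like and 1.32% in the cluster 6 cells. In cluster 0 and the IFE.SB-like, uHF.B-like and uHF.SB-like cells no gene of any kind was called. The lack of calls there is therefore not particular to the clock genes. Of the 359 calls behind the 0.413%, 233 were in the melanocyte-like cells, where no clock gene was tested. The count depends on the time scale and on the presence of the 0 h and 4 h samples. On a log2(hours + 1) scale, Arntl, Cry2 and Dbp were called, each in 1 type, beside 2.94% of all tests, and with time points given as ranks 1 clock gene was called, beside 1.98%. Without the 0 h library 5 clock genes were called, in 6 of 69 tests, beside 5.92% of all tests, and without the 4 h library also 5, in 6 of 69 tests, beside 3.32%.

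A 24 h harmonic was tested in the same way and leaves 3 residual degrees of freedom. In these 6 libraries it asks whether 4 h and 16 h differ from the other 4 by more than those differ among themselves, and an early response to depilation, which falls in the same 2 libraries, cannot be told apart from an hour of day. Per1 and Tef were called by edgeR in cluster 0, with adjusted p = 0.0135 and 0.0339, and 21.7% of all genes were called there. Per1 in cluster 0 was 26.9, 7.51, 27.5, 19.2, 25.4 and 19.8 CPM in time order, so that 4 h stood apart from the other 5. Of these cells 37.4% had at least 2 UMIs of 10 cell cycle markers at 4 h and 56.4% to 77.8% in the other libraries. This share depends on the depth of a cell as well as on cycling, and its part in the call was not tested. Tef in cluster 0 was 10.5, 9.58, 5.73, 11.7, 11.9 and 12.1 CPM, lowest at 16 h. In the other 8 types no clock gene was called by edgeR, beside 4.23% of genes in the IFE.SB-like cells and 4.64% in the uHF.B-like cells, where the lowest adjusted p values were 0.0792 for Tef and 0.105 for Per2. In the uHF.SB-like and Langerhans cell-like cells 0.0325% and 0.112% of genes were called. No gene of any kind was called in the OB-like, T cell-like, cluster 6 and melanocyte-like cells. Over all 9 types 2 of 73 tests of clock genes were called, beside 4.36% of all tests, and 13 of the 73 had an unadjusted p under 0.05, beside 18.4% of all tests. DESeq2 called 8 of 72 tests of clock genes, in 6 genes (Per1, Per2, Cry1, Nr1d1, Dbp and Tef), beside 10.01% of all tests. Over the sum of all cells edgeR called none of the 10 clock genes, and it called none of all 16898 genes. None of the 10 had an unadjusted p under 0.05 there, beside 17.7% of all genes. Without the 4 h library only 16 h stands apart from the other 4, so the cosine and sine cannot be fitted separately. No count is read from that setting. Without the 0 h library 7 of 75 tests of clock genes were called, in 5 genes, beside 8.58% of all tests.

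The 18 other genes of the clock machinery on a fixed list, such as Clock and Npas2, the partners of BMAL1, had a median common library share of 31.7%. Over all genes it was 37.62%. Npas2, Cipc and Bhlhe40 were called by edgeR for the harmonic in cluster 0, with adjusted p = 0.00409, 0.00848 and 0.016. These were 3 of the 18 genes tested there, beside 21.7% of all genes. Bhlhe41 and Wee1 were called by edgeR for the spline in the melanocyte-like cells, with adjusted p = 0.0159 and 0.00406. In the melanocyte-like cells none of the 10 clock genes passed the filter on low counts for the spline, and 5.42% of genes were called. Of the 18 other clock genes, called or not, those with a mean of at least 10 CPM over the 9 types included Clock, Rora, Nfil3, Hlf, Bhlhe40, Bhlhe41, Cipc, Csnk1d, Csnk1e, Usp2, Wee1 and Nampt. Nfil3, the D-box repressor that opposes Dbp and Tef, was the highest at 0 h in 8 of 9 types with a share of 69.6%, and Wee1, a kinase gene of the cell cycle, was the highest at 0 h in 7 with 48.2%. Of the 18 genes, 3 had 1 library highest in at least 7 types, beside 16.83% of all genes. Rora, the activator at ROR elements, was the highest at 0 h in 6 types with a share of 52.4%, and Nampt had the lowest share of the 18, 5.3%. Summed over the 18 genes with types weighted equally, the levels in time order were 944, 545, 605, 684, 558 and 712 CPM, and 0 h was the highest library in 7 of 9 types.

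Genes that respond to handling, stress or corticosteroids also varied between the libraries. The 12 immediate early genes summed, with types weighted equally, to 24500, 17620, 16700, 10200, 12800 and 10380 CPM in time order, with a median common share of 52.5%. Fos was the highest at 0 h in 5 types, Fosb in 8, Jun in 5 and Junb in 5. The 9 glucocorticoid responsive genes ranged from 4917 CPM at 0 h to 2081 at 4 d with a median share of 55.3%. Tsc22d3 had 128, 49.9, 106, 84.2, 89.2 and 48.5 CPM at the 6 times. The 9 genes did not move alike from 0 h to 4 h. Fkbp5 went from 11.06 to 10.86 CPM, Sgk1 from 176.6 to 126.3 and Zbtb16 from 50.88 to 1.366. Cdkn1a alone was higher at 4 h than at 0 h, with 726.7 and 615 CPM. The 7 heat shock genes ranged from 6614 CPM at 4 h to 3012 at 2 d with a median share of 60.4%. The share of cells with at least 2 UMIs of the 10 cell cycle markers also varied, from 9.26% of cluster 6 at 4 h to 34.4% at 4 d, at median depths of 4306.5 and 4910 UMIs, and from 12.2% of the OB-like cells at 4 h to 80.7% at 4 d, at 4537 and 7179 UMIs. The cells were not thinned for this share, which was 73.4% in the IFE.SB-like cells at 0 h, at a median of 11292 UMIs, so it does not give the share of cycling cells. The part of these genes and cells in the courses of the clock genes was not tested. In the sums without those cells the median common share of the 10 clock genes was 28.2%, beside 33.6% over all genes, and no clock gene had 1 library highest in 7 types, beside 14.2% of all genes.

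The genes most like Arntl and most like Dbp were named from 5971 genes with at least 20 CPM over the 54 values of 9 types and 6 libraries, after the mean of each type was removed. The values share libraries and depth, so the correlation is a description. Arntl was most like Fosb, with a Pearson r of 0.747, Sirt1 (0.724), Egr1 (0.718), Jun (0.714) and Junb (0.706), of which all but Sirt1, a deacetylase gene, are immediate early genes. Dbp was most like Pde7a (0.667), Eps15l1 (0.614), Cetn2 (0.591), Borcs8 (0.577) and Prkd3 (0.565). Among the clock genes, Tef had an r of 0.676 with Dbp, Per3 0.562, Cry2 0.384, Nr1d2 0.370, Per2 0.260, Nr1d1 -0.0123, Cry1 -0.110, Arntl -0.116 and Per1 -0.140.

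The levels of several clock genes also differed between cell types. Per1 had a mean over the 6 libraries of 133 ± 43.3 CPM in the T cell-like and 102 ± 54 in the Langerhans cell-like cells, and 15.0 to 32.4 in the other 7 types. The lowest T cell-like library, 88.5 CPM at 4 h, was above the highest value of any keratinocyte group, 73.2 in the OB-like cells at 0 h. For Per3 the lowest T cell-like value, 49.2 at 6 d, was likewise above every value of the other 8 types, which reached 12.8. Arntl was highest in cluster 0 at 37.3 ± 3.69 CPM, where its lowest library, 31.9, lay above all values of the IFE.SB-like cells, which had 18.4 to 24.1. Dbp had 32 ± 9.33 CPM in the T cell-like, 20.7 ± 9.77 in the OB-like and 19.7 ± 15.4 in the cluster 6 cells, which overlap, and 4.63 ± 2.43 in the uHF.SB-like cells. Cells of these types differ in depth, and the median T cell-like cell had 2020.5 to 2701.5 UMIs, beside 6110 to 10998 in cluster 0.

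**Figure D5:**
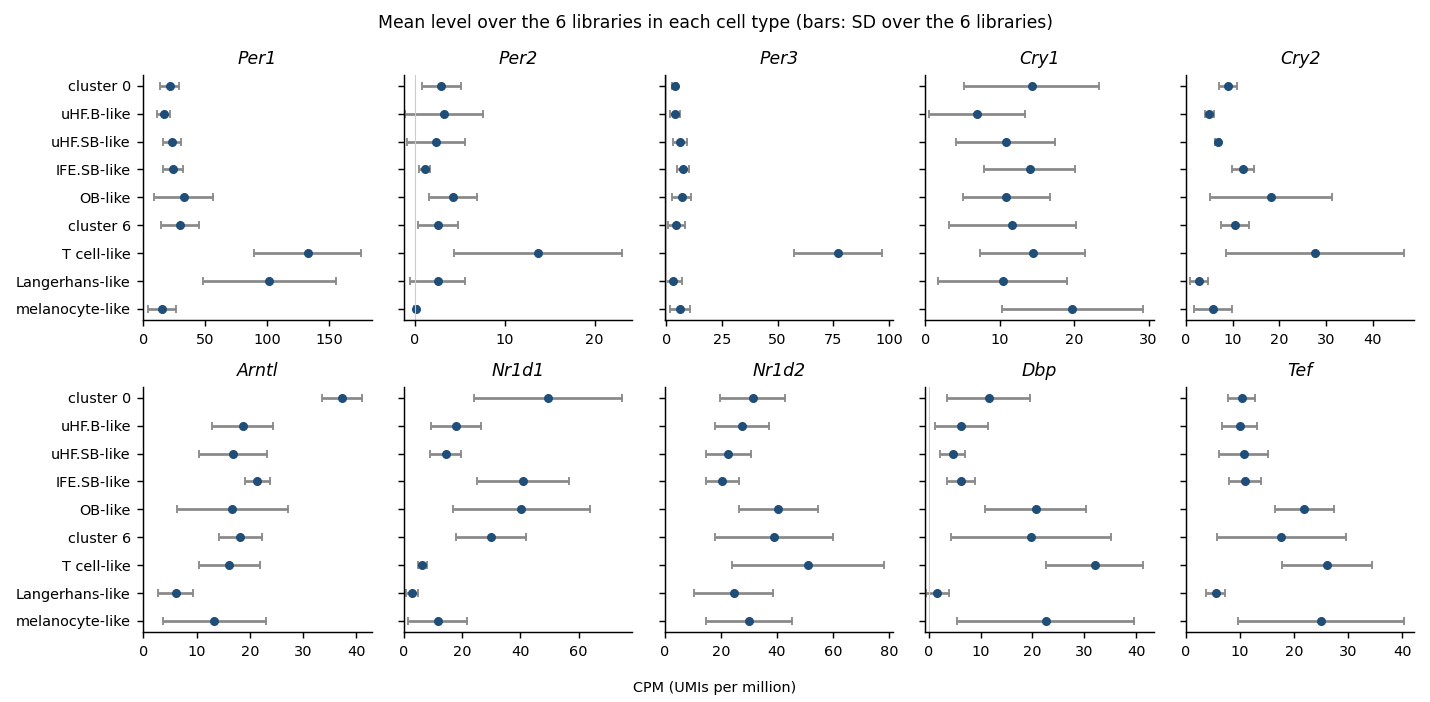
Mean level of each clock gene over the 6 libraries in each cell type, in CPM, with bars of 1 SD over the libraries. Per1 and Per3 are highest in the T cell-like cells, Arntl and Nr1d1 in cluster 0, and the bars of Cry1 and Tef overlap between most types.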

How the data were processed

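The deposited files hold whole-number UMI counts per gene and cell barcode, which the authors made with Cell Ranger 6.1.2 on mm10 per the submitters' processing notes, and no column belonged to another sample (0). The 16 h library carries the time of the labels and methods, although 1 passage of the study's text gives 6 h. Replicate libraries per time point were not made.

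Cells with 500 to 7000 genes and at most 10% mitochondrial UMIs were kept. Doublets were removed by rank of the Scrublet score (scanpy 1.11.5) at 0.8% per 1000 barcodes, since its own threshold called 0 to 677 barcodes per library. Libraries were integrated and clustered with Seurat 5.3.0 (2000 features, 30 principal components, resolution 0.2), leaving out 66 genes of the lists and 386 genes correlated with the cell cycle (r above 0.2). Cell types with fewer than 20 cells in a library (sebaceous gland-like, dermal papilla and fibroblast-like) were left out. UMI counts were summed per library and cell type. Levels are CPM of these sums, with exact Poisson 95% intervals for levels and exact conditional intervals for ratios.

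Tests used edgeR 4.0.16 (TMM, quasi-likelihood F test, Benjamini-Hochberg at FDR 0.05 over all genes of a cell type) in R 4.3.3, with a spline of 3 degrees of freedom or the cosine and sine of a 24 h period, and were tested on simulated data. Alternatives were DESeq2 1.42.0, other normalization, filters, time scales, cell sets and leaving out each library. The common library share used log2(CPM + 5). Python 3.11.15 was used for the remaining steps.

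All 10 clock genes were named. Of 18 other clock genes all were counted, and those with a mean of at least 10 CPM or a call were named, except for an item that is not reported here. For Arntl and Dbp the 5 most alike genes were named, and for other lists up to 4 genes in list order. Cdkn1a was named in addition, after seeing the data. The members and lists were chosen with earlier results of these data known.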

Additional observations from a re-analysis of the deposited data

Results flagged for a closer look

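Some clock genes differed in opposite directions between neighbouring libraries, with intervals of the ratio that left out 1 in at least 2 cell types each way. These differences between cell types were not tested, since each time point has 1 library. The ratio of 16 h to 4 h for Dbp was 3.04 (1.07 to 11.9) in cluster 6 and 0.0823 (0.0639 to 0.105) in cluster 0. For Tef the same ratio was 4.82 (1.19 to 42.2) in cluster 6 and 0.466 (0.205 to 0.967) in the T cell-like cells. Cluster 6 had 108 cells at 4 h and 189 at 16 h and changed in make-up, as its 7 upper follicle suprabasal markers summed to 11090, 3921, 3633 and 16500 CPM in the 4 h, 16 h, 2 d and 4 d libraries and its 9 outer bulge markers to 12510, 17870, 11000 and 7856. Per1 from 2 d to 4 d had a ratio of 1.56 (1.31 to 1.84) in the IFE.SB-like cells and 0.528 (0.35 to 0.814) in cluster 6, where the 8 genes listed as markers of an inner root sheath subset (IRS3) summed to 367.5 and 1538 CPM in the same libraries. From 4 d to 6 d its ratio was 2.48 (2.13 to 2.9) in the OB-like cells and 0.621 (0.523 to 0.74) in the IFE.SB-like cells, while the outer bulge markers summed to 3728 and 9156 CPM in the OB-like cells. The part of these changes in make-up in the ratios was not tested.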

How the results depend on the processing

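No paired analysis was possible because each time point has 1 library. For the spline, 0 clock genes were called; log2(hours + 1) gave 3 (2.94% of all tests called) and the rank of the time point 1 (1.98%), and leaving out 1 library gave 0 to 5, with 5 without 0 h or 4 h (5.92% and 3.32%) and 2 without 2 d or 6 d (1.41% and 1.24%). For the harmonic, 2 were called. The DESeq2 likelihood ratio test gave 6 (10.01%) and no filter on low counts 1 (4.67%). Leaving out 0 h, 2 d, 4 d or 6 d gave 1 (without 6 d, 2.17%) to 5 (without 0 h, 8.58%). Without 4 h or 16 h only 1 library stands apart, so the 2 harmonic terms cannot be fitted separately and no count is given. The median common share of 35.2% (37.62% over all genes) was 30.87% (36.25%) with a pseudocount of 1, 37.64% (36.59%) with TMM factors, 37.32% (39.86%) with doublets kept, 30.6% (37.06%) with means of per-cell CPM and 28.25% (33.62%) without cells of at least 2 cycling marker UMIs. With no filter on low values it was 35.2%, beside 17.76% over all genes, of which 7.32% had 1 library highest in most types. It was 66.36% (67.41%) in types with at least 1000000 UMIs and 58.28% (61.63%) in keratinocyte types, both chosen after seeing the data, and 34.88% to 37.26% (32.17% to 39.18%) when 1 library was left out. The count of 2 genes with 1 library highest in most types (16.83% of all genes) was 0 with per-cell means (15.55%) and 0 without cells of at least 2 cycling marker UMIs (14.21%), 5 in each of the added sets (47.04% and 32.46%), and 2 to 4 (16.83% to 24.15%) when 1 library was left out, with 4 without 0 h (19.18%). The median ratio of the highest to the lowest library, 2.79, was 2.09 with types weighted equally. The causes were not tested. Melanocyte-like and Langerhans cell-like sums limit what can be seen in those types.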
